A study of Homo sapiens with 7 samples.

Results

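The 34 genes described here encode the steps that bring glucose into the cell, break it down to pyruvate, exchange pyruvate with lactate and pass pyruvate into the mitochondrion. They were taken as a list of pathway genes out of 20037 protein-coding genes, chosen with earlier results of these data known. A peak was assigned to a gene when its centre lay inside the gene's span or within 5 kb of it. All 34 were found in the annotation.

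The study profiled ATF4 and MYC by ChIP-seq, in which chromatin is pulled down with an antibody to the protein and its DNA is sequenced, in DLD-1, an established line of human colon adenocarcinoma cells infected with a retrovirus expressing MycER. MycER is a MYC protein that becomes active when 4-hydroxytamoxifen is added, and every group carried it. The groups were ATF4 after 8 hr of MYC activation (2 libraries), MYC after 8 hr of activation (2 libraries) and ATF4 in control cells given vehicle (2 libraries), with 1 IgG sample from activated cells whose own peak list was not used here. The inducer was used at 500 nM, and no group received it in cells lacking MycER, so MYC activation and an action of the inducer alone cannot be told apart. MYC binding is described in activated cells only and has no control to be set against. Whether the replicates were separate cultures is not given, so spreads and p-values here measure these libraries and may be technical.

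The replicate 1 libraries held 24.9 M tags (ATF4 activated), 21.0 M (MYC) and 22.4 M (ATF4 control), and the replicate 2 libraries 49.8, 50.1 and 50.3 M in the same order. A peak of the same normalized height therefore rests on more reads in replicate 2. The MYC lists held 8636 and 22532 peaks, and the lowest peak listed had 3.80 tags in replicate 1 and 2.39 in replicate 2, where tags are always normalized tag counts per 10 M tags of the library. Markers of colon epithelium, listed with those of other cell types, had a MYC region in both libraries at 6 of 9 genes (KRT8, KRT18, CDH1, CDX1, CDX2 and LGR5, not EPCAM, KRT20 or VIL1). Markers of blood had one at 0 of 6, of fibroblasts at 1 of 6 (PDGFRB) and of neurons at 1 of 5 (RBFOX3). The share over all protein-coding genes was 21.9%. In replicate 2 alone a MYC peak lay at 7 of 9 colon, 4 of 6 blood, 1 of 6 fibroblast and 3 of 5 neuron markers. There the share over all protein-coding genes was 54.5%, so the split between blood and colon markers was narrower in the deeper library. Peak lists do not measure expression, so this does not check the cell type as RNA would.

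Glycolysis splits glucose into pyruvate in the cytosol, and lactate dehydrogenase turns pyruvate into lactate, which monocarboxylate carriers export. Pyruvate that is not turned into lactate enters the mitochondrion through the pyruvate carrier and is converted to acetyl-CoA by pyruvate dehydrogenase, which pyruvate dehydrogenase kinases switch off. Colon cancer cells, like many tumour cells, make much lactate even when oxygen is present, and MYC is known as an activator of glycolytic genes, LDHA among the earliest described. MYC with its partner MAX recognises the E-box, whose canonical letters are CACGTG. ATF4 is made in quantity when cells sense stress such as a lack of amino acids, and is best known for switching on genes of amino acid supply.

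At 4 of the 31 genes with a listed start (12.9%, against 5.4% of 15843 protein-coding genes) a MYC region called in both libraries overlapped the window around a listed start. The 31 genes had more such windows each (62, against 22183 for the 15843 genes), so more chances of an overlap. The 250 bases before the overlapped start are shown because they let the MYC peaks be read against the E-box letters. They are RefSeq sequences of GRCh38.p14, given 5′ to 3′ on the gene's strand. Capitals mark CACGTG and the related letters CACGCG and CACGAG on either strand. HK2 (chr2:74834920-74835169, plus strand) and LDHA (chr11:18394313-18394562, plus strand) each have 2 CACGTG. PDHB (chr3:58433833-58434082, minus strand) has 1, and DLAT (chr11:112025158-112025407, plus strand) has none of the searched letters.
HK2: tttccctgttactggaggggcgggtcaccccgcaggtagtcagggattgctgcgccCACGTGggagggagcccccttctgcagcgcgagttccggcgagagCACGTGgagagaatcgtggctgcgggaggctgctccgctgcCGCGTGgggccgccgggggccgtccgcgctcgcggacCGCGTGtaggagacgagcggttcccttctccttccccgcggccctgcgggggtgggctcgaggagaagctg
LDHA: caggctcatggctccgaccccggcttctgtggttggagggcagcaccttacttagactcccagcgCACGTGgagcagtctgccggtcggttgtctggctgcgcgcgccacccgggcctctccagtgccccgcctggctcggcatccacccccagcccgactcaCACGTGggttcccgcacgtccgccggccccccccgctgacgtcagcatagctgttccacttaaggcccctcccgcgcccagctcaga
PDHB: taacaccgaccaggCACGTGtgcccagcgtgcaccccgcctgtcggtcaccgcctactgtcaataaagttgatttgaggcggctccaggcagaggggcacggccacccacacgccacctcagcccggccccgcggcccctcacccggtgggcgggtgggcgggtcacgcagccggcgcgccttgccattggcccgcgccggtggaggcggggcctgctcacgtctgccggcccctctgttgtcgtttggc
DLAT: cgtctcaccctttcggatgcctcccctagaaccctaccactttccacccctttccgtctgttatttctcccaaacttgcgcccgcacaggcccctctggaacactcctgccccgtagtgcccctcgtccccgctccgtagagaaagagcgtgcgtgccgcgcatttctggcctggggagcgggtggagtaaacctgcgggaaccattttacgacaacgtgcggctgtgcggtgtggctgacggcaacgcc

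MYC regions called in both libraries lay at the hexokinase, GAPDH and enolase steps of glycolysis, at 1 glucose transporter, and at the lactate, monocarboxylate carrier and pyruvate dehydrogenase steps. None lay at the isomerase, phosphofructokinase, aldolase, triose phosphate isomerase, phosphoglycerate kinase, mutase or pyruvate kinase genes. Of the 34 genes, 13 had at least 1 MYC region called in both libraries (38.2%, exact interval 22.2 to 56.4%), against 21.9% of all protein-coding genes and 11.4% of all annotated genes. These were SLC2A1, HK2, HKDC1, PFKFB3, GAPDH, ENO1, LDHA, LDHB, SLC16A1, SLC16A3, PDHB, DLAT and PDK1, with 22 such regions in all. A further 11 had a MYC peak in replicate 2 only (HK1, GPI, PFKM, PFKP, ALDOA, PGK1, PGAM1, ENO3, PKM, MPC1 and MPC2), which is 32.4% against 32.7% of all protein-coding genes. The remaining 10 had no MYC peak in either library (SLC2A3, PFKL, PFKFB2, ALDOC, TPI1, BPGM, ENO2, PDHA1, PDK2 and PDK3). By library, 13 of the 34 genes had a MYC peak in replicate 1 (25.9% of all protein-coding genes did) and 24 in replicate 2 (54.5% of all did). The 34 genes had a median span of 23.8 kb, near the 24.1 kb of all protein-coding genes. Within the 34, the 13 genes had a median span of 33.5 kb and the other 21 one of 20.4 kb, and the part of gene length in these counts was not tested.

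**Figure D1:**
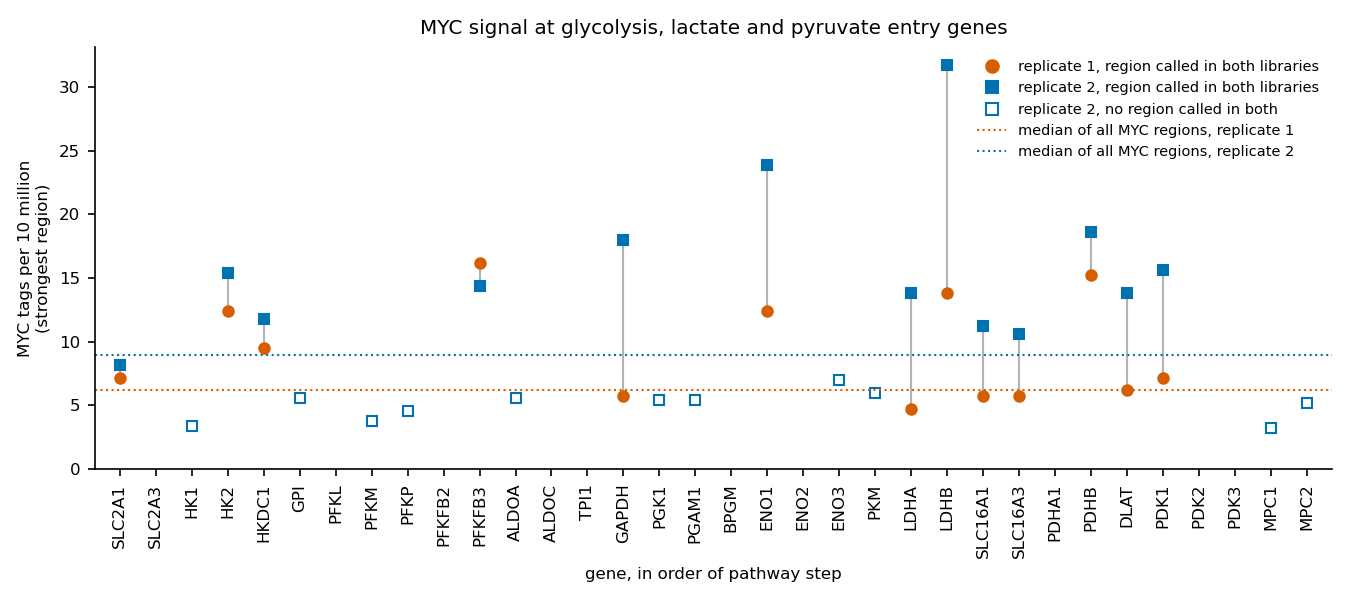
MYC tags per 10 M at the strongest region of each gene, in order of pathway step. Filled circles are replicate 1 and filled squares replicate 2 where a region was called in both libraries, open squares are the strongest replicate 2 peak of genes without such a region, and dotted lines are the medians of all 6313 MYC regions (6.18 tags in replicate 1 and 8.98 in replicate 2). LDHB and ENO1 stand highest in replicate 2, and PFKFB3 and PDHB in replicate 1.

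Both facilitative glucose transporters of the list are entry points for glucose, and they differed in MYC. SLC2A1 (GLUT1, the widely expressed transporter, chromosome 1) had 2 regions inside the gene, both far from its start. The stronger, 26835 bp downstream of the start (42931943 to 42932138), had 7.13 and 8.18 tags in replicates 1 and 2, and the other, 10549 bp downstream (42948238 to 42948415), had 7.13 and 5.39. SLC2A3 (GLUT3, the transporter best known from neurons) had no MYC peak.

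Among the hexokinases, which trap glucose as its 6-phosphate, HK2, the isozyme typical of muscle and of many tumours, had the most MYC regions of the 34 genes, with 4 called in both libraries. The strongest lay well inside the gene (chromosome 2, 74868073 to 74868268), 32993 bp from the nearest start, with 12.4 and 15.4 tags. Another lay 201 bp before a start (74834877 to 74835053), with 5.70 and 7.98 tags, and covers both CACGTG shown above. The other 2 had 5.70 and 10.6 tags (74865405 to 74865670) and 7.13 and 8.98 tags (74856150 to 74856382). HKDC1, a hexokinase-related enzyme, had 1 region 2505 bp downstream of its start (chromosome 10, 69222733 to 69222928), with 9.51 and 11.8 tags. HK1, the isozyme found in most tissues, which lies next to HKDC1, had only a low peak of 3.39 tags in replicate 2, below the lowest value listed in replicate 1. The 3 hexokinase genes therefore ranged from 4 regions to none called in both libraries.

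In the middle of the pathway, a regulator had 3 MYC regions called in both libraries and the enzymes had none. GPI, which turns glucose 6-phosphate into fructose 6-phosphate, had 3 peaks in replicate 2 only, the highest with 5.59 tags, 743 bp downstream of its start. The GPI peak of 3.59 tags also lay within 5 kb of GARRE1. That of 3.19 tags lay 2287 bp outside the span, and its nearest start, 301 bp away, was that of PDCD2L. Of the phosphofructokinases, which catalyse the committed step, PFKM had a peak of 3.79 and PFKP one of 4.59 tags in replicate 2 only, and PFKL had none. PFKFB3, whose product makes the activator of phosphofructokinase, fructose 2,6-bisphosphate, had 3 regions in both libraries (chromosome 10). The strongest (6299328 to 6299531) had 16.2 and 14.4 tags and lay 96490 bp from the nearest listed start, inside a gene of 182 kb, the longest of the 34. The second (6163858 to 6164062) had 7.13 and 17.2 tags and the highest fold over the authors' background library among the 22 regions, 148.61 in replicate 2. The third (6148212 to 6148425) had 5.23 and 5.19 tags. PFKFB2, a related enzyme, had no MYC peak.

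Of the aldolases, which split fructose bisphosphate, ALDOA had a replicate 2 peak of 5.59 tags centred 3 bp from a listed start, and ALDOC had none. TPI1, which interconverts the products of the split, had no MYC peak. GAPDH, the first oxidising step, had a region (chromosome 12, 6534182 to 6534389) with 5.70 and 18.0 tags, the widest relative gap between libraries among the 22 regions, 11.8 ± 8.70 (SD, n = 2). That region lay 986 bp before the listed start, 239 bp outside the annotated span, and also within 5 kb of NCAPD2 and IFFO1. PGK1, the first step to yield ATP, had a replicate 2 peak of 5.39 tags 119 bp downstream of its start. PGAM1, the phosphoglycerate mutase, had one of 5.39 tags 1099 bp before its start, and BPGM, which makes 2,3-bisphosphoglycerate, had none.

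Among the enolases, ENO1, the widely expressed form, had a strong region and the tissue-restricted forms did not. ENO1 had 12.4 and 23.9 tags 435 bp downstream of its start (chromosome 1, 8878154 to 8878334), above 96.1% of all 6313 MYC regions. It also had a replicate 1 peak of 4.75 tags 784 bp before the start and a replicate 2 peak of 4.39 tags beyond the far end of the gene. ENO2, the neuronal form, had none. ENO3, the muscle form, had a replicate 2 peak of 6.99 tags whose nearest listed start was that of PFN1, 808 bp away. PKM, pyruvate kinase, the last step of glycolysis, had a replicate 2 peak of 5.99 tags 2103 bp downstream of its start.

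The lactate step carried the MYC region with the highest mean of the 34 genes, at LDHB, although PFKFB3 and PDHB were higher in replicate 1. LDHB, the subunit that favours oxidation of lactate, had 13.8 and 31.7 tags 464 bp downstream of its start (chromosome 12, 21657280 to 21657490), above 98.5% of all MYC regions. LDHA, the subunit that favours lactate production, had 4.75 and 13.8 tags 246 bp before its start (chromosome 11, 18394221 to 18394427), above 67.5%. LDHB was 2.91 times LDHA in replicate 1 and 2.30 times in replicate 2. The means were 22.8 ± 12.7 and 9.28 ± 6.40 tags (SD, n = 2 each), an SD that holds the gap between the same 2 libraries for both genes, and 2 libraries allow no test. A second LDHA peak of 7.38 tags lay 211 bp downstream of the start in replicate 2 only. Both monocarboxylate carriers had regions. SLC16A1 (MCT1) had 5.70 and 11.2 tags inside the gene near one end (chromosome 1, 112955502 to 112955740). SLC16A3 (MCT4, the lactate exporter of glycolytic cells, chromosome 17) had 5.70 and 10.6 tags just inside the span (82217951 to 82218127). A second SLC16A3 region had 6.65 and 7.18 tags 4422 bp outside the span (82213430 to 82213606), where the nearest start, 670 bp away, is that of CCDC57. Nearer its own starts SLC16A3 had replicate 2 peaks only, of 4.19 tags at 107 bp and 6.59 tags at 631 bp.

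At pyruvate entry MYC was found at the dehydrogenase and 1 of its kinases. PDHB, the beta subunit of the E1 component, had 15.2 and 18.6 tags 265 bp before its start (chromosome 3, 58434008 to 58434184), with the smallest relative spread between libraries of the 8 regions within 1000 bp of a start (16.9 ± 2.40, SD, n = 2). DLAT, the E2 component, had 6.18 and 13.8 tags 121 bp before its start (chromosome 11, 112025178 to 112025410), within 5 kb of DIXDC1 too. PDHA1, the partner alpha subunit of PDHB, had no MYC peak. PDK1, a kinase that inactivates the complex, had 3 regions (chromosome 2). They had 7.13 and 15.6 tags (172673151 to 172673327), 4.75 and 9.38 tags 284 bp downstream of its start (172555575 to 172555753), and 4.75 and 5.59 tags (172698720 to 172698896). The first and the last lay 117144 and 142716 bp downstream of the nearest PDK1 start, and RAPGEF4 has the nearest listed start of any gene, 62611 and 37039 bp away. PDK2 and PDK3, 2 further kinases, had none. MPC1 and MPC2, the mitochondrial pyruvate carrier, had 3.19 and 5.19 tags in replicate 2 only, and the nearest start to the MPC2 peak was that of DCAF6, 151 bp away.

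By the mean of both libraries the strongest region of each gene ran from LDHB (22.8 tags) through ENO1 (18.1), PDHB (16.9), PFKFB3 (15.3), HK2 (13.9), GAPDH (11.8), PDK1 (11.4), HKDC1 (10.7), DLAT (9.99), LDHA (9.28), SLC16A1 (8.45) and SLC16A3 (8.15) to SLC2A1 (7.65). Within libraries, 1 of the 12 pairs of neighbours in this order (LDHB above ENO1) ran the same way in both, 9 ran in opposite ways and 2 were tied in 1 library. In replicate 1 alone PFKFB3 (16.2) and PDHB (15.2) came before LDHB (13.8). Over the 22 regions the median was 8.86 tags, against 7.54 for all 6313 MYC regions, and 16 of the 22 lay at or above that overall median. Summed over all regions called in both libraries, HK2 (36.9 tags), PFKFB3 (32.7) and PDK1 (23.6) came before LDHB, so the order depends on whether the strongest region or the sum is taken. Regions of 4 genes (LDHB, ENO1, PDHB and PFKFB3) lay at or above the 90th percentile of all MYC regions. Replicate 2 had the higher value at 19 of 22 regions and at 84.0% of all MYC regions, so the gap ran in the same direction at most MYC regions. Across the 22 regions the log2 tags of the libraries had a Pearson r of 0.60, against 0.77 across all MYC regions, which is a description of regions that share the same 2 libraries. The fold over the background library was never below 3.89 at these 22 regions, with medians of 10.5 in replicate 1 and 14.1 in replicate 2.

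A further 29 regions at these genes had a peak in replicate 2 only, with 2.99 to 10.6 tags and a median of 5.39, and 3 had one in replicate 1 only (at HK2, ENO1 and SLC16A1). Of the 29, 8 had fewer tags than the lowest peak listed in replicate 1 (3.80). The highest, 10.6 tags at PDK1, was above the median of MYC regions called in both libraries.

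MYC regions near transcription starts gave a smaller set. Of the 31 genes with a listed start, 8 had a region called in both libraries within 1000 bp of one (HK2, GAPDH, ENO1, LDHA, LDHB, PDHB, DLAT and PDK1), which is 25.8% (exact interval 11.9 to 44.6%), against 10.9% of 15843 protein-coding genes with a listed start. Any listed start counted, and the 31 genes had more each (62, against 22183 for the 15843 genes), so more chances. The peak centre of either library sufficed, and replicate 1 alone gave 7 genes. Within 500 bp it was 7, without GAPDH (22.6%, against 8.1% of all). In replicate 2 alone 16 of the 31 had such a peak, against 34.3% of all. Of the 21 regions of genes with a listed start, 8 lay within 1000 bp of it, 11 over 10000 bp away and 2 in between. Those over 10000 bp away were at SLC2A1, HK2, PFKFB3, SLC16A3 and PDK1, the genes with more than 1 region. The same split was not counted over all MYC regions, so it cannot be called particular to these genes. SLC2A1, HKDC1, PFKFB3 and SLC16A3 had all of their regions called in both libraries farther than 1000 bp from a start, while ENO1, LDHB, LDHA, PDHB, DLAT and GAPDH had no other region called in both libraries. The position plot shows these distances.

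**Figure D2:**
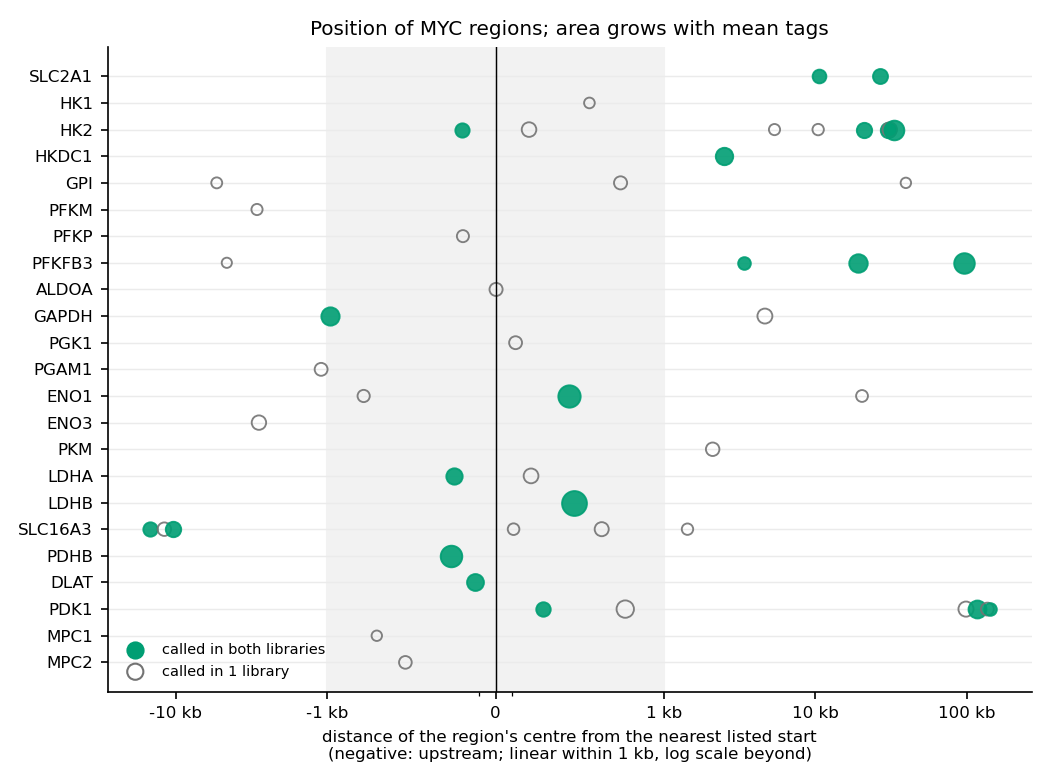
Distance of each MYC region's centre from the nearest listed start of its gene, negative upstream, on an axis that is linear within 1 kb (shaded) and logarithmic beyond. Filled points were called in both libraries and open points in 1, and the area grows with the mean tags. Of the 21 filled points, 8 lie in the shaded band and 11 over 10 kb away, a split that was not counted over all MYC regions.

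Read against the sequences above, CACGTG lay under the MYC peaks at HK2 and PDHB in both libraries and, for 1 of 2 sites, at LDHA in 1. Positions count from the listed start and are negative upstream of it. At HK2 both CACGTG, at -194 to -189 and -149 to -144, lay inside the peaks of both libraries, which ran from -271 to -123 in replicate 1 and from -293 to -117 in replicate 2. At PDHB the single CACGTG of the window, at -236 to -231, lay inside both peaks. At LDHA the CACGTG at -185 to -180 lay inside the replicate 2 peak (-312 to -136) and beyond the edge of the replicate 1 peak (-342 to -194), and the one at -87 to -82 lay outside both. The related letters lay outside the peaks of both libraries, at -108 to -103 and -71 to -66 at HK2 and at 38 to 43 at LDHA. At DLAT, whose peaks ran from -230 to -82 and from -174 to 2, none of the searched letters occurred in the window.

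**Figure D3:**
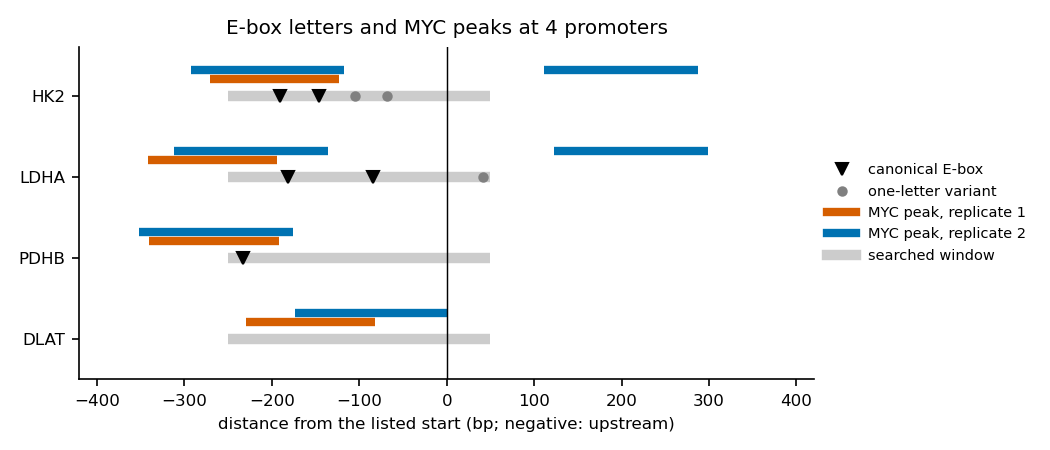
Windows around the listed starts of HK2, LDHA, PDHB and DLAT (grey, 250 bases before to 50 from the start), with MYC peaks of replicate 1 (orange) and replicate 2 (blue) above them and E-box letters as triangles (canonical) and dots (one-letter variants). The HK2 and PDHB triangles lie under the peaks of both libraries, 1 of 2 LDHA triangles lies under the replicate 2 peak, and DLAT has none.

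Over all windows, 8 of the 31 genes had CACGTG in at least 1 window (HK2, PFKFB3, ALDOA, ALDOC, GAPDH, LDHA, PDHB and PDK2), which is 25.8% against 10.9% of 15843 protein-coding genes. Genes with several listed starts have several windows, and counted by window it was 8 of 62 (12.9%) against 8.34% of 22183 windows. Of the 941 windows that a MYC region of both libraries overlapped, 22.7% held CACGTG. ALDOC and PDK2 had the letters but no MYC peak, and at PFKFB3 the letters were 38853 bp from the nearest MYC peak. At ALDOA the CACGTG lay 112 bp from the centre of its replicate 2 peak, outside the peak, and at GAPDH it lay 885 bp from the nearest centre. These matches describe letters and do not show that a site is bound.

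The related parts of carbohydrate metabolism gave a range of shares on both sides of the 34 genes. The other genes of glycolysis and pyruvate handling, among them isozymes of other tissues, accessory subunits and regulators, had a MYC region in both libraries at 9 of 47 (19.1%, exact interval 9.15 to 33.3%). The highest were G6PC3, a glucose 6-phosphatase (19.0 and 28.7 tags), SLC2A4, the insulin-regulated transporter (14.7 and 21.2), PGM2, a phosphopentomutase (12.4 and 16.2), and SLC2A10, a transporter (13.3 and 13.2). The pentose phosphate and hexosamine branches had one at 8 of 16 (50.0%, interval 24.7 to 75.3%). Their highest were TALDO1, transaldolase (16.6 and 22.6), GNPNAT1 of hexosamine synthesis (7.61 and 18.4), OGA, which removes the sugar tag that hexosamine synthesis feeds (10.5 and 12.2), and RPIA, ribose 5-phosphate isomerase (6.65 and 15.0). The citric acid cycle had one at 6 of 20 (exact interval 11.9 to 54.3%), led by SUCLG2 (10.5 and 16.0) and SUCLA2 (7.61 and 11.2), subunits of succinyl-CoA ligase, and MDH1, the cytosolic malate dehydrogenase (8.56 and 12.8). The share over all protein-coding genes was 21.9%. The intervals given for the 3 lists overlap that of the 34 genes. Within 1000 bp of a listed start the 3 lists had shares of 10.0%, 26.7% and 23.5%, in the order above, of their 40, 15 and 17 genes with a listed start. By that measure the share was 25.8% of the 31 genes with a listed start and 10.9% of all protein-coding genes with one. A share near that of the 31 genes was thus also seen in 2 related lists. The differences between lists were not tested.

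**Figure D4:**
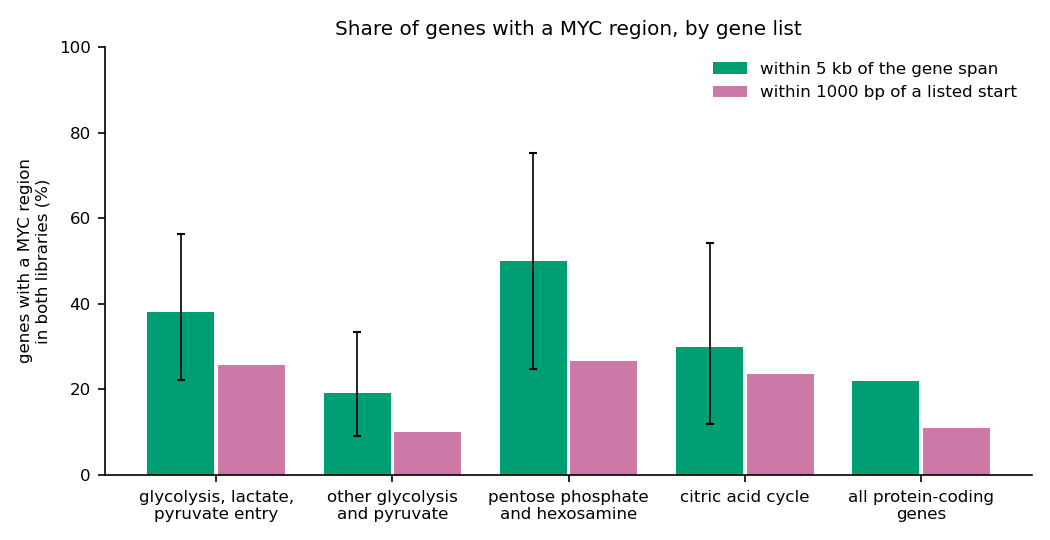
Percentage of genes with a MYC region in both libraries, within 5 kb of the gene span (green, with exact 95% intervals for the lists) and within 1000 bp of a listed start (pink). The pink bars cover only genes with a listed start. The 34 genes have 38.2%, the 31 of them with a listed start 25.8%, all protein-coding genes 21.9% and 10.9%, and the intervals of the 4 lists overlap.

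ATF4 had no region called in both libraries of a condition at any of these genes. No gene of the 34 had an ATF4 region called in both activated libraries, against 1.15% of all protein-coding and 0.652% of all annotated genes, and none had one called in both control libraries, against 0.424% and 0.243%. A count of 0 of 34 allows a share of up to 8.82%, so shares as low as these backgrounds could not be told from 0 with 34 genes. By gene, regions of both factors, each called in both activated libraries, occurred at 0 of the 34 (0.619% of all protein-coding genes). Each region had only to lie within 5 kb of the gene's span, and overlap was not required, so shared sites were not counted. ATF4 signal could be compared between activated and control cells at 105 regions, those listed in each of the 4 libraries, and 0 of them lay within 10 kb of any of the 34 genes. Over those regions ATF4 was higher in activated cells at 37.1% and lower at 0% (limma adjusted p under 0.05, with 57 higher and 0 lower at an unadjusted p under 0.05). With each library centred on its median, 0 were higher and 9 lower, and with a replicate block, or with any 1 of the 4 libraries left out, 0 passed. None of these values belongs to the 34 genes.

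What ATF4 signal there was consisted of 8 peaks at 8 genes, each in 1 of the 4 libraries. In activated cells 1 gene had a peak in replicate 1 (3.59% of all protein-coding genes did) and 4 in replicate 2 (6.61%). In control cells it was 1 gene in replicate 1 (2.50%) and 2 in replicate 2 (4.59%). The highest was at SLC16A1 in activated replicate 2 (chromosome 1, 112907627 to 112907831), with 7.23 tags, above 90.6% of that list. It lay 4118 bp outside the SLC16A1 span, at the end of the gene away from the MYC region called in both libraries, and it overlapped a MYC replicate 2 peak of 3.59 tags whose centre was 72 bp away. It was the only one of the 8 to overlap a MYC peak, and activated replicate 1 and both control lists had no peak there.

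The other 4 peaks of activated cells were lower. HK2 had 4.22 tags in activated replicate 2 (chromosome 2, 74862814 to 74863018), 2563 bp from the nearest MYC peak centre. LDHB had 3.62 tags in activated replicate 2, 2590 bp outside the gene, and MPC2 had 3.62 tags in the same library, 2546 bp outside the gene and within 5 kb of DCAF6. HK1 had 4.81 tags in activated replicate 1, inside the gene. In control cells ENO1 had 5.36 tags in replicate 1, TPI1 had 4.77 in replicate 2 within 5 kb of USP5 and SPSB2, and PDK1 had 3.38 in replicate 2. HK1, ENO1, LDHB, MPC2 and PDK1 lay at or below the median height of their own list. With each peak in 1 library, and no value where no peak was called, no difference between the conditions could be tested at these sites.

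**Figure D5:**
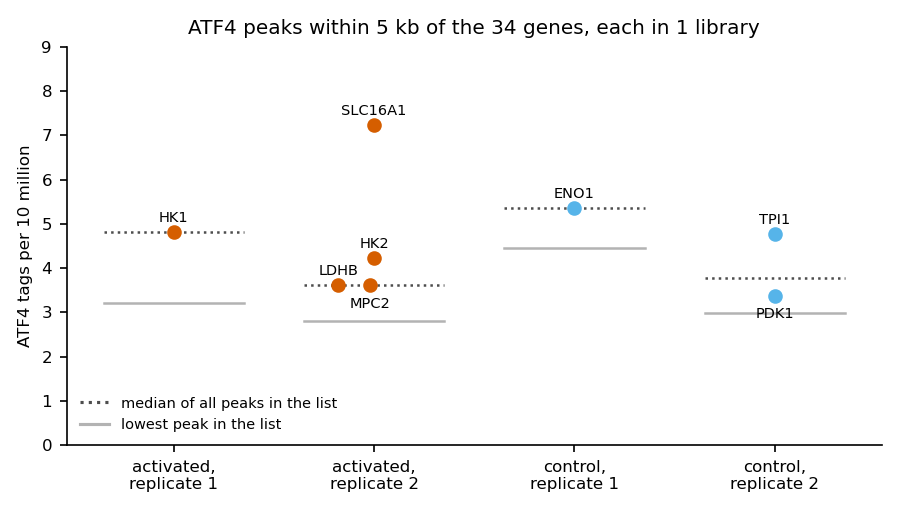
Normalized ATF4 tags of every ATF4 peak within 5 kb of the 34 genes, by library, activated left of control. Dotted lines are the median and grey lines the lowest of all peaks in each list. Only SLC16A1 in activated replicate 2 (7.23 tags), HK2 in the same library and TPI1 in control replicate 2 lie above the median of their list.

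The letters TGATGCAA, the core of the composite element that ATF4 binds with C/EBP partners, occurred on either strand in the windows of 1 of the 31 genes, HK1, against 0.903% of protein-coding genes with a listed start. The letters lay before the HK1 starts at 69270000 and 69270005, while the HK1 peak of activated replicate 1 (chromosome 10, 69360187 to 69360357) lay far inside the gene, 25658 bp from its nearest listed start. In the related lists 1 gene had an ATF4 region called in both activated libraries, PGLS, 6-phosphogluconolactonase of the pentose phosphate branch (chromosome 19, 17507968 to 17508202), with 12.4 and 19.1 tags in activated replicates 1 and 2, against 9.82 and 10.3 in control replicates 1 and 2. Its change of 0.57 (activated minus control, mean log2(tags + 1)) was close to the median change of 0.54 over all 105 common regions, which was -0.11 once libraries were centred.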

How the data were processed

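Peak lists of 6 chromatin immunoprecipitation sequencing (ChIP-seq) libraries from DLD-1 cells were analysed. Per the submitters' processing notes, Bowtie 0.12.9, HOMER and the hg38 build were used, and no settings are given. Each library has a peak list of its own in HOMER format, per the file headers. Heights are given as the authors' normalized tag count (called tags here), a signal per 10 M tags of the library. The deposited lists also give the fold over a background library, which the headers do not name, and the p-value of that comparison. Whole tag counts per peak, deposited for the replicate 1 lists only, were used to work out depth. In the replicate 2 lists depth was read from the constant step between low values.

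From these lists, peaks of 1 factor sharing 1 bp or more were joined into a region. A gene was counted when a peak centre lay inside or within 5 kb of its span in the RefSeq annotation of GRCh38.p14. Distances and sequences refer to the RefSeq promoter table of that build, which lists starts for 31 of the 34 genes and often several per gene, and the nearest start was used. SLC2A3, PFKFB2 and SLC16A1 had no entry. Motif letters were searched on both strands in windows of 250 bases before and 50 from each start. No genome sequence was used here, so the regions themselves were not searched. Exact (Clopper-Pearson) 95% intervals and limits from a count of 0 (3 counts) cover counting error only. ATF4 signal was tested with limma 3.58.1 and a trend on log2(tags + 1), with Benjamini-Hochberg adjustment, at regions listed in each of the 4 ATF4 libraries, since peak lists hold no value where no peak was called. A count test, planned for the case of whole counts throughout, was not run because replicate 2 has none. The limma step was tested on simulated data. Shares of genes were set beside those of all genes without a test.

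The genes and gene lists were chosen with earlier results of these data known. Genes were named by a rule: each with an ATF4 peak, each with a MYC region in both libraries, in order of pathway step, and the 4 strongest of each other list, of which 1 is not reported here. Genes with a MYC peak in 1 library are named too. Alternatives were other windows, folds, overlap rules, pseudocounts and scalings, and leaving out each library. The tools were Python 3.11.15, pandas 2.3.3, scipy 1.17.1, matplotlib 3.10.9 and R 4.3.3.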

Additional observations from a re-analysis of the deposited data

How the results depend on the processing

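The count of 13 genes with a MYC region in both libraries was 9 with peaks inside the span alone (26.5%, against 14.7% of protein-coding genes) and 13 with a 1 kb window (38.2%, against 18.9%). It was also 13 with a background fold of at least 4, a limit on the distance between peak centres or a longer overlap, and 14 with a 10 kb window (41.2%, against 25.2%). With the 21.0 M or the 50.1 M tag MYC library left out, 13 to 24 genes had a MYC region, the 24 in the deeper library alone, and 7 to 16 had one within 1000 bp of a start. The counts of 0 for ATF4 held under every window, fold, overlap and tag threshold tried. With 1 library left out, 1 to 4 genes had an ATF4 region in activated cells and 1 to 2 in control cells, and 0 to 3 had both ATF4 and MYC, since the remaining library alone then defined the condition. Adding CACGCG and CACGAG raised the genes with E-box letters from 8 to 15, or 48.4% against 32.5% of protein-coding genes, and by window the share was 27.4% against 26.5%. The excess over all windows seen with CACGTG alone (12.9% against 8.34%) was thus nearly gone with the wider letters. Of the 105 common ATF4 regions, none at these genes, 39 changed, 0 changed with a replicate block (smallest limma adjusted p 0.115), and 9, all lower, changed with each library centred on its median, where the median log2 change was -0.11, against 0.54 without centring. Leaving out each ATF4 library gave 0 to 0, with smallest adjusted p of 0.0623 to 0.164; the cause was not tested. Summing tags over regions raised SLC2A1 (13.9), HK2 (36.9), PFKFB3 (32.7), SLC16A3 (15.1) and PDK1 (23.6), which have several regions. Same-numbered ATF4 libraries deviated together with a correlation of 0.10, and with 2 pairs the numbers do not establish pairing.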
